A study of Mus musculus with 6 samples.

Results

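Potassium channel genes were followed in cultured mouse hippocampal neurons before and after depolarisation. The members are the genes whose symbol starts with Kcn, further letters and a number, and whose level averaged at least 0.5 cRPKM in untreated neurons. The cRPKM is the authors' level per gene, read here as a read count corrected for gene length and library size; the sources used here do not define it. Of 21553 genes with values, 92 matched the symbol pattern; 67 of them were members and 25 lay below the level. The neurons came from E16.5 embryos of C57bl/6 mice and had been in culture for 10 days. They were left untreated, or were exposed to 55 mM KCl for 0.5 h or for 3 h, with 2 libraries in each of the 3 groups. Each pair of libraries is labelled as biological duplicates without naming the unit (culture, litter or dish). A p-value here sets the difference between groups against the spread within such pairs and no wider variation. The fit draws part of that spread from all genes tested. No transgene or mutation is named in the labels, and each library is a whole culture, neurons and other cells together.

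Potassium channels let potassium leave the cell along its gradient, which pulls the membrane back towards rest. Voltage-gated channels, built of 4 subunits around 1 pore, open on depolarisation and end the action potential. Inward rectifiers and two-pore leak channels set the resting potential, and calcium-activated and sodium-activated channels open after bouts of firing. Raised KCl outside the cell depolarises neurons and is widely used in place of synaptic activity. By symbol family the members fell into 34 voltage-gated genes, 8 inward rectifiers (Kcnj), 8 two-pore genes (Kcnk), 7 calcium-activated genes (Kcnm, Kcnn and Kcnu), 2 sodium-activated genes (Kcnt) and 8 accessory genes (Kcnab, Kcne and Kcnip). The voltage-gated group includes 8 so-called silent subunits (Kcnf, Kcng, Kcns and Kcnv), which form no channel alone and alter Kv2 channels by joining them.

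Kcnj2 and Kcnj12 encode close relatives, both strong inward rectifiers of the Kir2 class, and they moved in opposite directions after 3 h. Their promoters are shown for that reason. Each sequence is the 250 bases before the transcription start, read from RefSeq (GRCm38.p6, plus strand), at chr11:111065914-111066163 for Kcnj2 and chr11:61065554-61065803 for Kcnj12. Capitals mark GC boxes (GGGCGG on either strand).
Kcnj2: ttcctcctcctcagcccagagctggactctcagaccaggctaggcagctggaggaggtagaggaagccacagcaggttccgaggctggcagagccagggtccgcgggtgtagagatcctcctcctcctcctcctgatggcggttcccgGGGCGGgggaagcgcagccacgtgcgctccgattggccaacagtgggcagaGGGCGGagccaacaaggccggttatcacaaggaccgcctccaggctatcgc
Kcnj12: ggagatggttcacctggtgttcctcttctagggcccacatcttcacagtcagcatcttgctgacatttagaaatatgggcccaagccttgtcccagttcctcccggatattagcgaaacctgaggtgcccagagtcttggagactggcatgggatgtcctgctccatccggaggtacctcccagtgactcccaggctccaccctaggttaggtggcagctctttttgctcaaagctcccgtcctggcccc
The Kcnj2 stretch is 65.6% G and C and holds 2 GC boxes, which begin 102 and 51 bases before the start. The Kcnj12 stretch is 56.0% G and C and holds none of the motifs searched. RefSeq promoters of 300 bases (250 before and 50 after the start) were found for 48 members, 71 promoters in all, and 19 members had none in the table. Both strands were searched for the cAMP response element CRE (TGACGTCA), its first part (TGACG, contained in the former), AP-1 (TGANTCA), the GC box (GGGCGG) and the TATA box (TATAAA). The GC box was present in 52.1% of the members' promoters and in 35.7% of 32851 promoters of all genes. It was present in 3 of 5 promoters of members called lower at 3 h. Among promoters of members not called, 33 of 65 held it. The TATA box was present in 4.23% and 13.6%, AP-1 in 4.23% and 7.81%, TGACG in 15.5% and 20.8%, and CRE in 0.0% and 1.79%. These matches describe the letters only and carry no test.

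Total counts ran from 98882007 to 141865913 per library, and the member with the fewest counts had 52 to 197 of them. The treatment left its mark in the activity genes: Fos stood at 7.98 and 8.14 cRPKM untreated, at 236.75 and 222.75 after 0.5 h, and at 344.26 and 271.36 after 3 h. Replicate 2 of every group differed from replicate 1 in some cell type markers. Gfap, an astrocyte filament gene, was at 22.38 to 24.58 cRPKM in the replicate 1 libraries and at 307.34 to 474.96 in the replicate 2 libraries. Ttr, which marks choroid plexus, was at 0.04 to 0.13 and at 136.24 to 228.82. The other astrocyte markers differed far less than Gfap between the 2 untreated replicates. Slc1a3 was at 389.87 and 398.06 cRPKM there, Gja1 at 128.92 and 134.91, and Aldoc at 216.34 and 322.05. Neuron markers were present throughout, and the 8 microglia markers summed to 1.08 to 1.42 cRPKM. In bulk RNA, fewer cells of a type and less RNA per cell cannot be told apart.

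Before treatment Kcnip3, a calcium-binding partner of Kv4 channels, was among the most abundant members, with 38.41 and 40.70 cRPKM (mean 39.55 ± 1.62, SD, n = 2). Both of its libraries lay above those of Kcna6 (29.06 and 27.11 cRPKM), a Kv1 delayed rectifier. From there the order was close: Kcna6 overlapped the stretch- and lipid-sensitive leak channel Kcnk2 (27.78 and 27.34 cRPKM). Of the 66 pairs of neighbours in the whole order of levels, 8 had untreated libraries that did not overlap, and the other neighbours did not differ beyond their spread. The most abundant inward rectifier was Kcnj4 with 23.38 and 27.51 cRPKM, and the calcium-activated member with the highest mean was the large-conductance channel Kcnma1 with 22.76 and 24.92. Its libraries overlapped those of Kcnmb4 (24.88 and 19.36 cRPKM), an accessory subunit of that channel. Kcnt2 led the sodium-activated genes with 7.97 and 8.64 cRPKM. The members just inside the level were Kcnk13 (0.60 and 0.47 cRPKM) and Kcns3 (0.45 and 0.69), and the genes just outside were Kcng4 (0.33 and 0.44) and Kcnh8 (0.29 and 0.33). All 67 members passed the low-count filter of the test.

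After 0.5 h of KCl none of the 67 members was called. In edgeR's quasi-likelihood test with Benjamini-Hochberg adjustment, 0 were higher and 0 lower. Over all 15895 genes tested, 0.0377% were called higher and 0.0% lower. DESeq2 (0.22% of all genes higher, 0.0126% lower), limma (0.0566% and 0.0%) and edgeR with the replicate number as a block (0.0818% and 0.0%) also called 0 members. Without the block edgeR called the activity genes Fos, Nr4a1 and Arc higher. Npas4, another such gene, missed the threshold at a log2 change of 4.48 ± 0.37 (adjusted p = 0.054, edgeR; 0.03 with the block). The absence of calls therefore does not show that the members were unchanged. The members' median log2 difference was -0.08, with 55 of 67 below 0, beside a median of 0.00 for all genes tested. Against the untreated library of the same number, 36 members (53.7%) had a lower cRPKM in both pairs and 8 (11.9%) a higher one, beside 22.7% and 38.6% of all genes tested. Their summed cRPKM was 98.0% and 94.2% of that in the untreated library of the same number.

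After 3 h, 13 members were called lower and 1 higher. Over all genes tested 6.84% were called lower and 8.71% higher. The members' median log2 change was -0.42 (all genes -0.02), and 57 of 67 had a value below 0. Both 3 h libraries lay below both untreated ones for 52 members (77.6%; 35.9% of all genes tested) and above them for 4 (5.97%; 24.1% of all genes). Of the 13 members that fell, 5 did so by 2-fold or more. The summed level of all members was 86.2% of the untreated library in replicate 1 and 66.9% in replicate 2, so replicate 2 lay further down. With the replicate block the counts were 32 lower and 4 higher (18.6% and 18.6% of all genes), which adds 19 falls and 3 rises. DESeq2 called 24 lower and 2 higher (11.7% and 14.3% of all genes). Scaling by library totals gave 16 lower and 0 higher (8.43% and 7.01% of all genes).

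**Figure D1:**
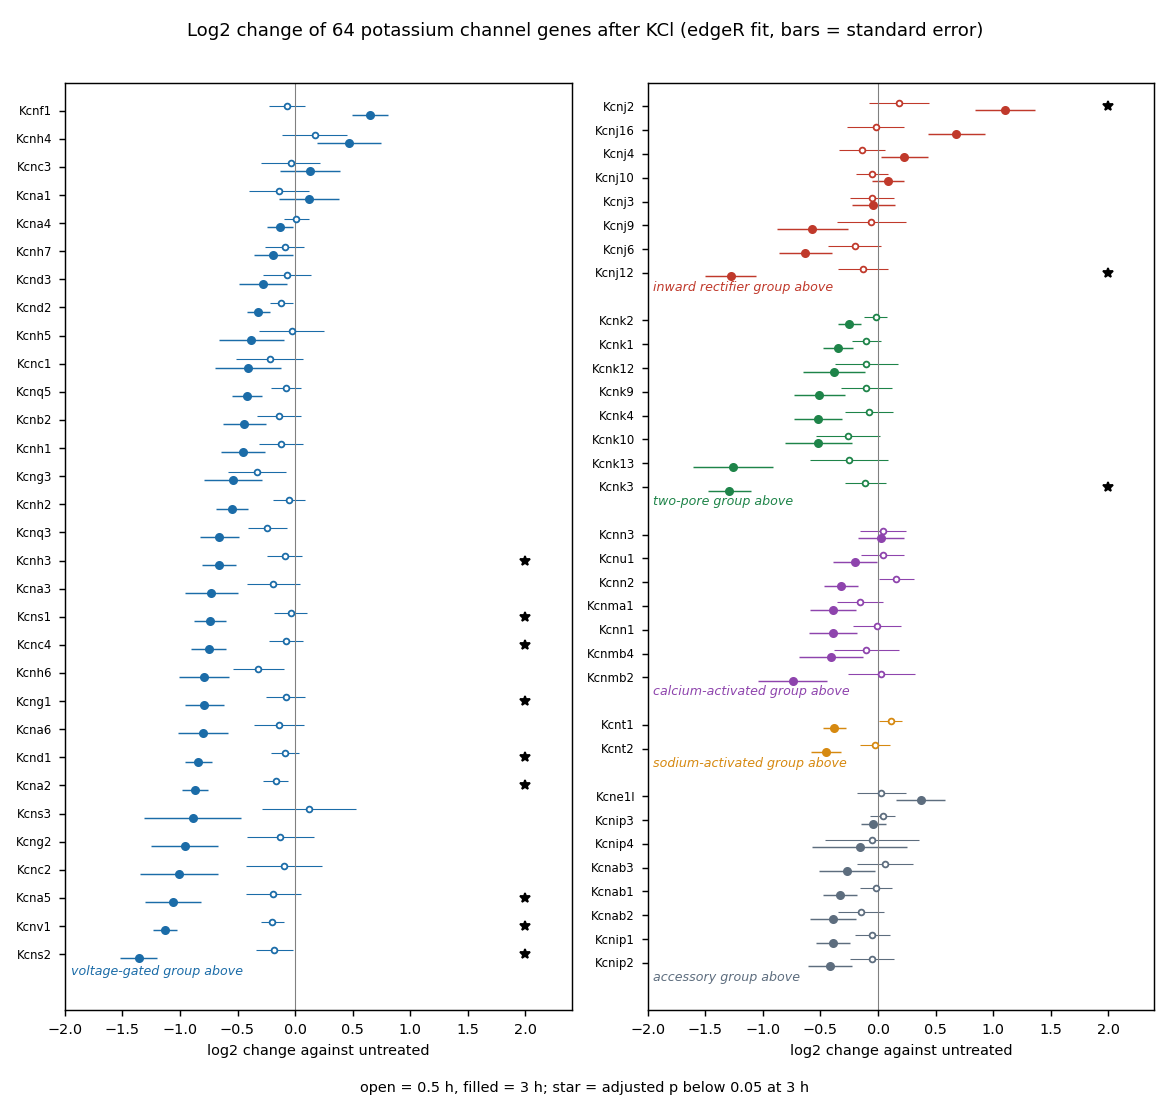
Log2 change against untreated for 64 of the 67 members, at 0.5 h (open) and 3 h (filled), with the standard error of the edgeR fit as bars and a star where the adjusted p at 3 h was below 0.05. Filled points lie below 0 for 54 of the 64 members drawn; of the starred members drawn, Kcnj2 alone has its filled point above 0.

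These calls rested on few libraries. Without untreated replicate 1 none of the 14 calls was kept (adjusted p 0.057 to 0.19 in edgeR's test), nor without untreated replicate 2 (0.067 to 0.23); of all genes, 0.0988% and 0.0247% were then called lower. The untreated group then has 1 library, whose spread is assumed to be like that of the other groups. Without either 0.5 h library 6 were kept (2.17% and 2.2% of all genes called lower) and without 3 h replicate 2 8 were (4.35%). Without 3 h replicate 1 13 were kept and 27 members were called lower in all, and the share of all genes called lower also rose, to 11.2%. Each of the 14 was called in DESeq2 and with the block.

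The 2 lowest log2 changes of the voltage-gated group belonged to silent subunits. Kcns2 was at 2.39 and 2.95 cRPKM untreated, 2.21 and 2.56 at 0.5 h, and 1.00 and 1.00 at 3 h. It fell by 1.36 ± 0.16 (SE) on the log2 scale, a 2.57-fold change (adjusted p = 0.0095, edgeR). Kcnv1 was at 4.83 and 5.29, then 4.39 and 4.54, then 2.2 and 2.25 cRPKM. In both genes the 3 h libraries nearly coincided and stood well apart from the other 4. Kcnv1 fell by 1.13 ± 0.10 (adjusted p = 0.0063, edgeR), the smallest p among the members. Kcng1 went from 17.22 and 16.41 through 16.96 and 15.29 to 10.54 and 8.06 cRPKM (log2 change -0.79 ± 0.17, adjusted p = 0.035, edgeR). Kcns1 went from 2.73 and 2.95 through 2.67 and 2.93 to 1.58 and 1.68 cRPKM (-0.74 ± 0.14, adjusted p = 0.025, edgeR). For these 4 silent subunits no 3 h library overlapped an untreated or 0.5 h library.

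Kcnf1, also a silent subunit, lay on the other side. It was at 8.86 and 11.32 cRPKM untreated, 8.93 and 10.65 at 0.5 h, and 16.39 and 14.02 at 3 h. Both 3 h libraries were above the other 4. Against untreated the log2 difference was 0.65 ± 0.16 (adjusted p = 0.052, edgeR; 0.034 with the replicate block), and against 0.5 h it was 0.72 ± 0.17 (adjusted p = 0.049), which passed. That call was lost with library totals (adjusted p = 0.06), in limma (0.072 and 0.076) and when any 1 library was left out (0.059 to 0.20). Of the 8 silent subunits 4 fell and 0 rose against untreated (6.84% and 8.71% of all genes), with a median of -0.84. With the block 6 fell and 1 rose, beside 18.6% of all genes each way.

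Among the pore-forming voltage-gated genes, 7 fell after 3 h. Kcna2, a Kv1 subunit of axons that limits repetitive firing, went from 11.72 and 12.72 cRPKM untreated and 10.82 and 11.16 at 0.5 h to 6.79 and 6.09 at 3 h. This is a log2 change of -0.87 ± 0.11 (adjusted p = 0.011, edgeR). Its relative Kcna5 went from 0.72 and 0.74 through 0.66 and 0.64 to 0.38 and 0.29 cRPKM (-1.06 ± 0.24, adjusted p = 0.041, edgeR). Neither gene's 3 h values overlapped those of the other groups. Kcna6, the most abundant Kv1 member, was at 29.06 and 27.11, then 28.33 and 23.53, then 18.09 and 12.69 cRPKM, with a log2 difference of -0.80 ± 0.22 that missed the threshold (adjusted p = 0.06, edgeR) and passed with the block (0.0095). Its rank by level among the members was 3 before treatment and 12 at 3 h. The annotated antisense gene Gm26673 covers 39.6% of Kcna6's exon bases, and the library kit does not mark strand. Kcna1 had no call and went opposite ways in the replicates, with 11.11 and 12.99 cRPKM untreated and 15.68 and 9.34 at 3 h (141.1% and 71.9% of untreated). Its share of the summed Kv1 level was 16.81% and 18.66% untreated and 30.04% and 24.54% at 3 h. Kcna4, an inactivating Kv1 subunit, also had no call, with 5.91 and 6.99 cRPKM untreated and 5.53 and 5.83 at 3 h (-0.13 ± 0.11, adjusted p = 0.44, edgeR). Its share went from 8.94% and 10.04% to 10.59% and 15.32%.

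Further falls lay in the Kv3, Kv4 and Kv12 families. Kcnd1, a Kv4 gene of the transient A-type current, went from 4.55 and 4.50 cRPKM through 4.41 and 4.22 to 2.57 and 2.29 (-0.84 ± 0.12, adjusted p = 0.014, edgeR). Its abundant relative Kcnd3 was at 23.22 and 20.28, then 23.09 and 19.03, then 19.98 and 14.37 cRPKM, without a call (-0.28 ± 0.21, adjusted p = 0.40, edgeR). Kcnd1 made up 11.45% and 11.84% of the summed Kv4 level untreated, and 7.86% and 8.84% at 3 h. Kcnc4, a fast-inactivating Kv3 gene, went from 18.70 and 21.95 through 18.88 and 20.23 to 12.75 and 10.43 cRPKM (-0.75 ± 0.15, adjusted p = 0.029, edgeR).

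Kcnh3, a Kv12 gene, went from 16.98 and 20.77 cRPKM through 16.37 and 19.56 to 12.11 and 10.77 (-0.66 ± 0.15, adjusted p = 0.037, edgeR). Across the voltage-gated group 11 of 34 fell and 0 rose (median -0.57), beside 6.84% and 8.71% of all genes. With the block 18 fell and 1 rose, beside 18.6% of all genes each way.

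**Figure D2:**
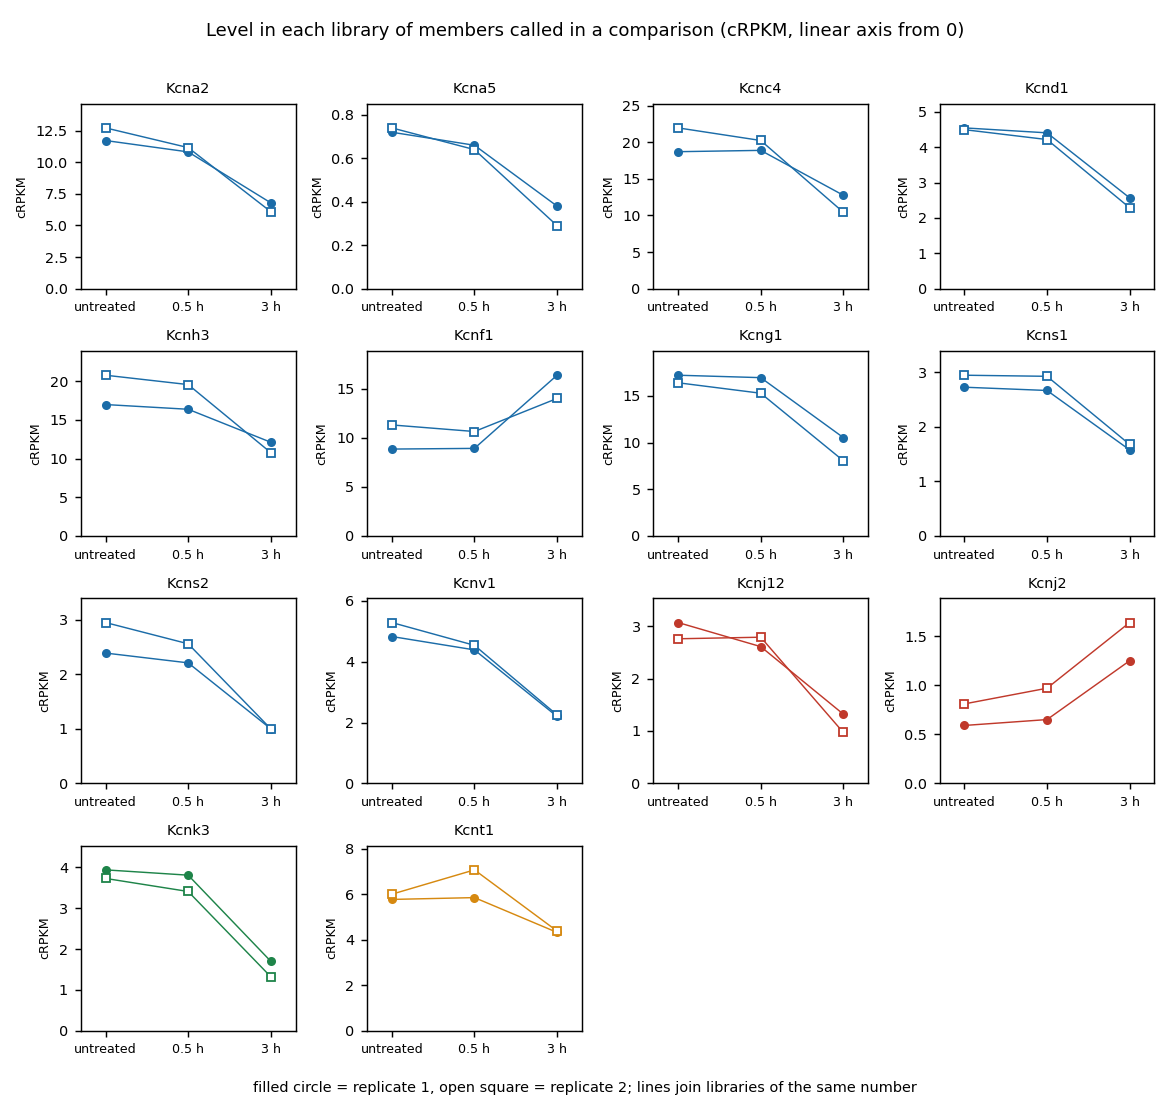
Level in cRPKM (linear axis from 0) in each library for 14 members called in at least 1 of the 3 comparisons, with replicate 1 as filled circles, replicate 2 as open squares and lines joining libraries of the same number. The values at 0.5 h sit near the untreated ones, and those at 3 h lie lower except for Kcnj2 and Kcnf1.

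The inward rectifiers changed in both directions. Kcnj2 was at 0.59 and 0.81 cRPKM untreated, 0.65 and 0.97 at 0.5 h, and 1.25 and 1.64 at 3 h. It was the only member called higher against untreated (log2 change 1.1 ± 0.26, adjusted p = 0.044, edgeR). That call was lost with library totals (adjusted p = 0.06), in limma (0.061 and 0.071) and when any 1 of the 6 libraries was left out (0.054 to 0.19). Kcnj12 went the opposite way, from 3.07 and 2.76 cRPKM through 2.61 and 2.79 to 1.32 and 0.97 (-1.28 ± 0.22, adjusted p = 0.021, edgeR). Kcnj4, the Kir2 relative with the highest level, was at 22.54 and 24.46 cRPKM at 0.5 h and 33.65 and 23.51 at 3 h, without a call (0.23 ± 0.20, adjusted p = 0.46, edgeR). Between Kcnj12 and Kcnj2, Kcnj12 was the higher one in both untreated libraries, and at 3 h it was the higher one in replicate 1 only.

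Of the remaining inward rectifiers, Kcnj10 and Kcnj16 form the potassium-buffering channels of astrocytes. Kcnj16 was at 3.85 and 2.85 cRPKM untreated, 3.88 and 2.84 at 0.5 h, and 5.71 and 4.58 at 3 h. Its log2 difference of 0.68 ± 0.25 passed with the block (adjusted p = 0.0058) and not without it (0.12, edgeR). Kcnj10 was at 15.33 to 18.38 cRPKM in all 6 libraries. The 9 astrocyte markers summed at 3 h to 104.2% and 143.3% of the same-numbered untreated library. In edgeR's test 0 of the 9 were called (8.71% of all genes higher). DESeq2 called 1 higher (14.3% of all genes), and the block fit called 4 higher (18.6%). The part of astrocytes in the Kcnj16 value was not tested. Kcnj3, Kcnj6 and Kcnj9, subunits of the G protein-gated channels, had no call, and only Kcnj9 was called lower with the block. Over the 8 inward rectifiers the median was 0.02, with 4 values on each side of 0. In this group 1 rose and 1 fell, beside 8.71% and 6.84% of all genes. With the block 2 rose and 2 fell, beside 18.6% of all genes each way.

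Among the two-pore leak channels Kcnk3, an acid-sensitive background channel, was at 3.94 and 3.73 cRPKM untreated, 3.81 and 3.41 at 0.5 h, and 1.70 and 1.32 at 3 h. It fell by 1.29 ± 0.19 on the log2 scale, a 2.44-fold change (adjusted p = 0.014, edgeR). The untreated and 0.5 h libraries lay close together, and both 3 h libraries lay far below them. Kcnk13 was at 0.60 and 0.47, then 0.54 and 0.36, then 0.25 and 0.17 cRPKM, a log2 difference of -1.26 ± 0.35 that passed with the block (adjusted p = 0.0061) and not without it (0.064, edgeR). Kcnk2 was at 28.44 and 26.60 cRPKM after 0.5 h and at 22.81 and 21.73 after 3 h. Against untreated its log2 difference of -0.25 ± 0.10 passed with the block (adjusted p = 0.044) and not without it (0.14, edgeR), and against 0.5 h it passed in neither fit (0.063 and 0.19). All 8 two-pore members had values below 0 (median -0.52). Of the 8, 1 fell, beside 6.84% of all genes. With the block 5 did, beside 18.6%, the further ones being Kcnk1, Kcnk10, Kcnk2 and Kcnk13. That median was -0.87 without 3 h replicate 1 and -0.32 without 3 h replicate 2.

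None of the 7 calcium-activated members and none of the 2 sodium-activated or 8 accessory members was called against untreated in edgeR's test. At an unadjusted p under 0.05, 1, 2 and 1 of them were lower and 0 higher. These counts stand without the share of all genes at that threshold and are not read as a result. DESeq2 called 2 of these members, the sodium-activated Kcnt1 and Kcnt2 (adjusted p = 0.025 each). Limma called 0, which is given without its share of all genes and is not read as a result. In DESeq2 11.7% of all genes were lower and 14.3% higher. Kcnma1 was at 22.14 and 21.06 cRPKM at 0.5 h and at 20.43 and 14.33 at 3 h (-0.39 ± 0.20, adjusted p = 0.22, edgeR). Its accessory subunit gene Kcnmb2 was at 1.70 and 2.32, then 1.64 and 2.53, then 0.93 and 1.39 cRPKM (-0.74 ± 0.30, adjusted p = 0.14, edgeR; 0.0084 with the block). With the block, Kcnmb2, Kcnmb4 and the small-conductance channel Kcnn1 were called lower, 3 of 7, beside 18.6% of all genes. Kcnn3 had the value nearest 0 in that group (0.03 ± 0.20). Kcnu1 is placed there by its sequence family, although its channel responds to voltage and pH. The group's median was -0.39, close to that of all members.

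Kcnt1, a sodium-activated channel, was at 5.77 and 6.00 cRPKM untreated, 5.85 and 7.07 at 0.5 h, and 4.32 and 4.38 at 3 h. It was called lower at 3 h against 0.5 h (log2 change -0.49 ± 0.10, adjusted p = 0.042, edgeR) and not against untreated (-0.38 ± 0.10, adjusted p = 0.063; 0.033 with the block). Kcnt2 had -0.45 ± 0.13 against untreated (adjusted p = 0.065, edgeR; 0.039 with the block), with 7.98 and 8.53 cRPKM at 0.5 h and 6.28 and 5.36 at 3 h. Of the accessory genes, Kcnip3 was at 38.31 and 44.44 cRPKM at 0.5 h and at 33.61 and 40.85 at 3 h (-0.04 ± 0.11, adjusted p = 0.85, edgeR). Kcnab1 and Kcnip1 were called lower and Kcne1l higher with the block. Kcne1l, a small membrane subunit, was at 10.82 and 8.08 cRPKM untreated, 11.06 and 8.49 at 0.5 h, and 11.97 and 11.48 at 3 h. The accessory group's median was -0.30.

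**Figure D3:**
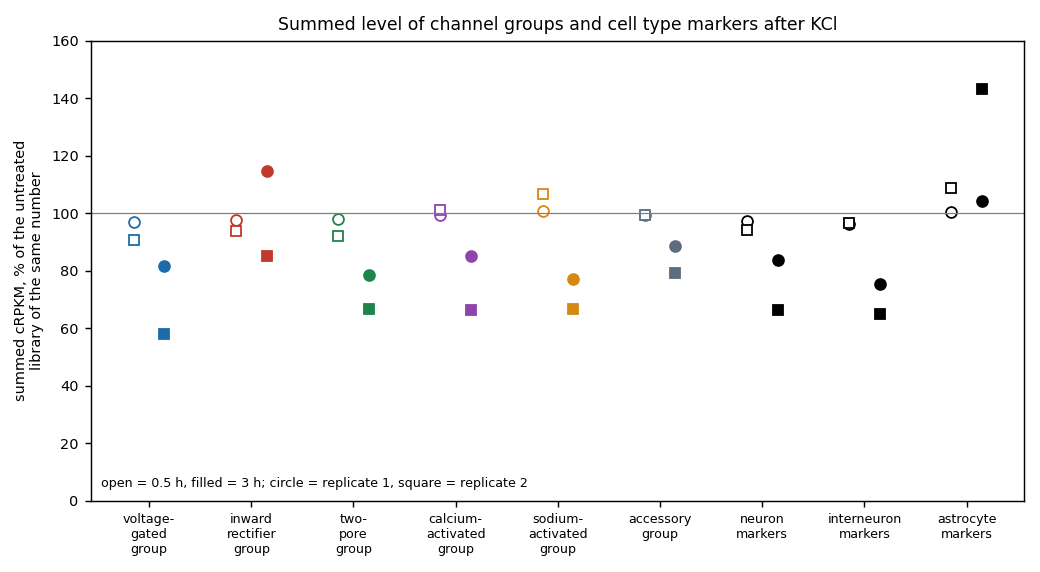
Summed cRPKM of each channel group and of 3 cell type marker lists, as a percentage of the untreated library of the same number, at 0.5 h (open) and 3 h (filled), with circles for replicate 1 and squares for replicate 2. At 3 h the voltage-gated group stood at 81.7% and 58.1% and the inward rectifiers at 114.7% and 85.0%.

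As a percentage of untreated, every group sum at 3 h was lower in replicate 2 than in replicate 1. At 3 h the voltage-gated sum was 81.7% of untreated in replicate 1 and 58.1% in replicate 2, the two-pore sum 78.5% and 66.8%, the calcium-activated sum 85.1% and 66.3%, the sodium-activated sum 77.1% and 66.5%, and the accessory sum 88.6% and 79.1%. The inward rectifier sum was 114.7% and 85.0%, on both sides of the untreated level. The sum of the 8 neuron markers was 83.7% and 66.3%, and the median log2 change of all 8 was -0.21. Without Tubb3 the sum was 99.8% and 75.4%. In replicate 1 Nefl went up from 68.01 to 127.86 cRPKM and Snap25 from 260.32 to 264.98, and the other neuron markers were lower. In replicate 2 all neuron markers were lower. Excitatory neuron markers summed to 83.9% and 53.0% and interneuron markers to 75.3% and 64.9%. Of the excitatory list, Neurod2 (26.46 to 30.73 cRPKM) and Prox1 (5.87 to 8.01) were higher in replicate 1 and lower in replicate 2. The others in that list were lower in both replicates. Of the 8, 7 and 9 markers tested, 0 were called in edgeR's test, beside 6.84% of all genes lower and 8.71% higher. In DESeq2's calls, 1, 1 and 2 were lower. DESeq2 called 11.7% of all genes lower. With the block 2 neuron markers (Tubb3 and Syt1), 1 excitatory marker (Neurod6) and 5 interneuron markers (Gad2, Lhx6, Slc32a1, Sst and Dlx1) were called lower, and none higher, beside 18.6% of all genes in each direction. The part of neuron number or neuronal RNA content in the falls of the channel genes was not tested.

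Between 0.5 h and 3 h, 10 members were called lower and 1 higher (4.87% and 6.39% of all genes tested; with the block 24 and 3, with 15.6% and 15.6% of all genes; with DESeq2 19 and 3, with 10.1% and 12.2%). This comparison shares its 3 h libraries with the one against untreated. The log2 changes were -1.18 ± 0.19 for Kcnk3 (adjusted p = 0.022, edgeR), -1.18 ± 0.16 for Kcns2 (0.016), -1.15 ± 0.22 for Kcnj12 (0.033) and -0.93 ± 0.10 for Kcnv1 (0.012). They were -0.75 ± 0.12 for Kcnd1 (adjusted p = 0.023, edgeR), -0.70 ± 0.14 for Kcns1 (0.034), -0.69 ± 0.11 for Kcna2 (0.022) and -0.67 ± 0.15 for Kcnc4 (0.045). Kcnt1 was also among the falls, and Kcnf1 was the rise. None of the 11 kept its call without 0.5 h replicate 1 (adjusted p 0.10 to 0.23) or 0.5 h replicate 2 (0.10 to 0.27). In those fits 0.0% of all genes were called lower. Without either untreated library 2 were kept (0.846% and 0.903% of all genes lower), without 3 h replicate 1 9 (8.6%) and without 3 h replicate 2 5 (3.1%).

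Calls that appeared only with the block against untreated included Kcnc2, a Kv3 gene of fast-spiking neurons. It was at 5.69 and 9.48 cRPKM untreated, 5.41 and 8.98 at 0.5 h, and 2.94 and 4.37 at 3 h. Replicate 2 was higher throughout, and within each replicate the 3 h library was the lowest (-1.01 ± 0.34, adjusted p = 0.098, edgeR; 0.0034 with the block). Interneuron markers were lower beside it, as given above, and their part in the Kcnc2 value was not tested. The voltage-gated genes called lower only with the block were Kcna6, Kcnc2, Kcnh2, Kcnh6, Kcnq3, Kcng2 and Kcns3. In all 31 members were called by neither fit. Of genes below the level in untreated neurons, Kcnj13 alone reached 0.5 cRPKM in the mean of a KCl group. It was at 0.09 and 0.42 cRPKM untreated, at 0.09 and 0.74 at 0.5 h and at 0.14 and 1.07 at 3 h. Only its replicate 2 values reached 0.5 cRPKM. The replicate 2 libraries also held most of the Ttr RNA, and the part of choroid plexus cells in the Kcnj13 value was not tested.

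The called members were not those with the highest levels. Their untreated means ran from 0.73 cRPKM (Kcna5) to 20.32 (Kcnc4) for those that fell, and Kcnj2, which rose, was at 0.70. Across the 67 members Spearman's rho between untreated level and log2 change at 3 h was 0.23, given as a description since the genes share the same libraries and the untreated values enter both axes. The 13 genes that fell spanned a median of 18 kb in the GRCm38 annotation (2.86 to 94.2 kb), the 53 uncalled members 60.9 kb, and all tested genes with a coding transcript 24.8 kb. Of the 13, 8 had 1 or 2 coding exons (61.5%), against 17 of the 53 uncalled members (32.1%) and 12.1% of all genes. A single coding exon was found in 3 of the 13, Kcns2 among them, and in 10 of the 53 uncalled members, Kcnf1 among them. Kcnj2, which rose, also has 1. Such short structure thus went with falls, with the rise and with no call. Among called members, exons of an annotated gene on the other strand overlap 5.8% of the Kcnk3 exon bases and 1 base of Kcnh3.

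**Figure D4:**
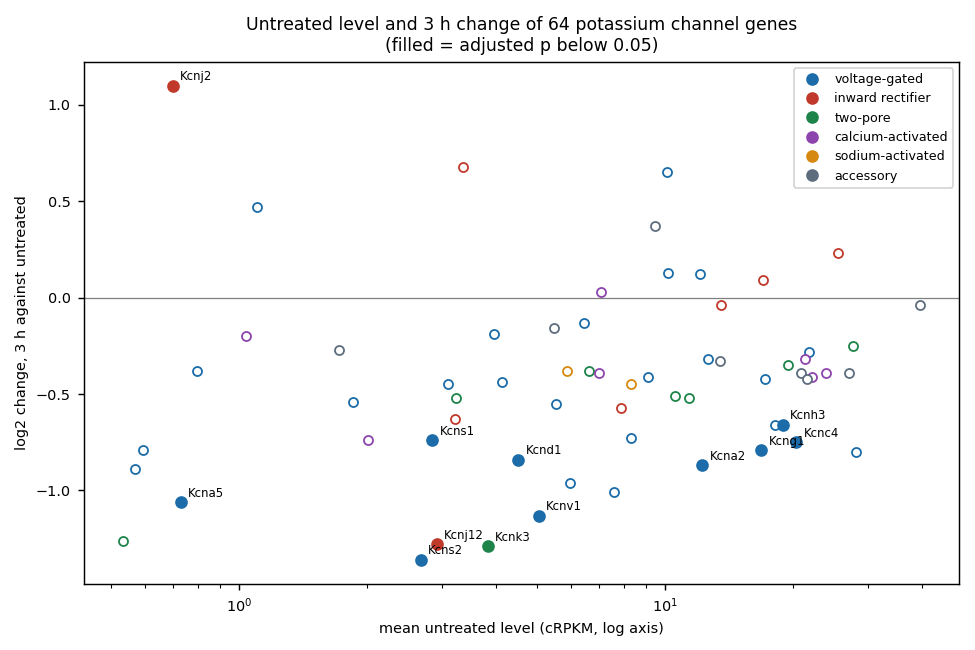
Mean untreated level (cRPKM, log axis) against the log2 change at 3 h for 64 of the 67 members, coloured by group, with filled points for those with an adjusted p below 0.05. The filled points below 0 lie between 0.73 and 20.32 cRPKM and the filled point above 0, Kcnj2, lies at 0.70.

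A list of 33 partners of these channels, measured in the same fit, had 5 members lower and 2 higher at 3 h, beside 6.84% and 8.71% of all genes. With the block 13 were lower and 2 higher, beside 18.6% of all genes each way. The partners' median was -0.40, and -0.55 to -0.22 when 1 library was left out, with the value nearest 0 without 3 h replicate 2. The hyperpolarisation-activated cation channels, which act at potentials near rest, are represented by Hcn2 and Hcn3. Hcn2 went from 25.26 and 29.34 cRPKM untreated to 17.63 and 15.12 (log2 change -0.68 ± 0.15, adjusted p = 0.036, edgeR), and Hcn3 from 20.16 and 21.02 to 14.81 and 12.24 (-0.55 ± 0.13, adjusted p = 0.045, edgeR). Amigo1, a Kv2 partner, went from 12 and 14.65 to 8.22 and 8.92 cRPKM (-0.58 ± 0.13, adjusted p = 0.036, edgeR). Adam22, found with Kv1 channels on axons, went from 24.02 and 25.68 to 17.88 and 15.88 (-0.50 ± 0.12, adjusted p = 0.043, edgeR). Dlg1, a scaffold that binds Kv1 and Kir2 channels, rose from 13.81 and 15.94 to 20.75 and 26.07 cRPKM (0.71 ± 0.14, adjusted p = 0.027, edgeR). Lrrc52, whose protein modulates Slo-family channels, rose from 0.01 and 0.03 to 0.39 and 0.58 cRPKM (4.82 ± 0.62, adjusted p = 0.011, edgeR). Without either untreated library 0 partners were called, and without either 0.5 h library or 3 h replicate 2 only the 2 rises were; without 3 h replicate 1 there were 14 falls and 2 rises.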

How the data were processed

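RNA was measured by sequencing in 6 libraries of cultured hippocampal neurons. Per the labels' protocols, RNA was taken with TriReagent and libraries were made with the TruSeq RNA kit v2, which does not mark strand. Bowtie and the mouse build mm9 are named per the submitters' processing notes, with the version of Bowtie not given in the sources used here. The authors deposited 2 values per gene: an RPKM, named cRPKM, taken to be corrected for gene length without a stated definition, and a read count without normalization. Of 22667 genes listed, 1114 had no value. Identifiers were matched to symbols in GENCODE M21 (GRCm38), which named 94.9% of genes; no coordinates come from the deposited values.

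Levels and sums are cRPKM. The test was edgeR's quasi-likelihood F test (edgeR 4.0.16, R 4.3.3) on the counts after TMM normalization. The filterByExpr step at a minimum of 10 counts left 15895 genes with 99.99% of counts. The 6 libraries entered 1 fit whose sole term was the group (3 residual degrees of freedom), with Benjamini-Hochberg adjustment over all genes and a threshold of 0.05. "Called" means past that threshold. Counts at an unadjusted p under 0.05 are given without the share of all genes at that level and are not read as results. The script was tested on simulated data. Tables were handled in Python 3.11.15.

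The labels number the replicates without saying what a number marks. Differences between replicates 1 and 2 correlated across 15895 genes with r = 0.81, 0.58 and 0.61 between the groups (untreated and 0.5 h, untreated and 3 h, 0.5 h and 3 h), so the numbers were read as a pairing, although the labels state none. The fit was repeated with the number as a block. Other alternatives were DESeq2 1.42.0, limma 3.58.1 on log2(cRPKM + 0.5) and log2(cRPKM + 0.1), library totals, relative log expression scaling, no low-count filter, other level limits for the members, and leaving out each library.

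The members and lists were chosen with earlier results of these data known. Genes named with values are members called in any comparison, the most abundant member of each group, the 2 members just inside and the 2 genes just outside the level, up to 4 members in each direction called only with the block, genes below the level that reach it after KCl, and partners called at 3 h. Marker lists covered neurons, excitatory neurons, interneurons, astrocytes, the oligodendrocyte lineage, microglia, endothelium, pericytes with smooth muscle and fibroblasts, progenitors, and ependyma with choroid plexus. Protein sequences were not used here. Values of a few genes, counted in the totals and sums, are not reported here or drawn. Kcna1, Kcna4, Kcnj10, Kcnmb4, Kcnn3, Gfap, Ttr and the neuron, interneuron and other cell type markers named were picked from their lists after their values were seen.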

Additional observations from a re-analysis of the deposited data

Results flagged for a closer look

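For 11 members the KCl effect differed between 3 h and 0.5 h, tested as 3 h against 0.5 h in edgeR's fit. The log2 difference of the effects (3 h minus 0.5 h) was below 0 for 10 of them, among them -1.18 for Kcns2 and for Kcnk3, -1.15 for Kcnj12, -0.93 for Kcnv1, -0.75 for Kcnd1, -0.70 for Kcns1, -0.69 for Kcna2, -0.67 for Kcnc4 and -0.49 for Kcnt1. It was above 0 for Kcnf1, at 0.72. All 11 were also called with the replicate block (adjusted p 0.0046 to 0.03), and none when a 0.5 h library was left out.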

How the results depend on the processing

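No called member changed direction under any alternative run. With the replicate block, 32 members were lower and 4 higher at 3 h against untreated, and 24 and 3 against 0.5 h; every call made without the block was also made with it. DESeq2 gave 24 and 2, and 19 and 3. Higher calls against untreated numbered 0 with library totals and with limma at either pseudocount. They also numbered 0 with members of at least 1 cRPKM (61 genes). With relative log expression scaling and without the low-count filter they numbered 2. Higher calls against 0.5 h numbered 0 with library totals and with limma. The counts from limma, relative log expression scaling and the unfiltered fit stand without the share of all genes called. So does the count with library totals against 0.5 h. They are not read as results. Leaving out 1 library at a time gave 0 to 1 higher and 0 to 27 lower against untreated, and 0 to 2 higher and 0 to 21 lower against 0.5 h. At 0.5 h against untreated, 0 members were called under each alternative run. The members' median at 3 h ran from -0.58 to -0.35 when 1 library was left out, the calcium-activated median from -0.44 to -0.17 the accessory median from -0.51 to -0.15 and the two-pore median from -0.87 to -0.32. The inward rectifier median of 0.02 had no stable sign: it was -0.03 with library totals, -0.04 with limma at either pseudocount and with members of at least 1 cRPKM, and -0.22 to 0.18 when 1 library was left out. The causes were not tested. The member with the fewest counts had 52 in its lowest library; no test here separates depth from the spread between the 2 libraries of a group as a limit on the calls.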

Other observations

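At 3 h against untreated, of 8 oligodendrocyte lineage markers, 6 microglia, 6 endothelial and 7 progenitor markers tested, 0 were called in edgeR's test. In edgeR's test 6.84% of all genes were called lower and 8.71% higher. DESeq2 called 1 oligodendrocyte lineage marker lower and 1 progenitor marker in each direction, beside 11.7% of all genes lower and 14.3% higher. With the replicate block, 4 of the 7 progenitor markers were called higher (Nes, Mki67, Top2a and Pax6), together with Olig2 of the oligodendrocyte lineage, Cldn5 of endothelium and Ttr of choroid plexus, while Mog and Kdr were called lower; microglia markers had 0 calls. Of 10 pericyte, smooth muscle and fibroblast markers 1 was called higher and 1 lower, and of 4 ependymal and choroid markers 1 was called lower (2 higher and 1 lower, and 1 and 1, with the block, beside 18.6% of all genes in each direction). Of the genes matching the symbol pattern below 0.5 cRPKM, 15 passed the low-count filter. Of these, 0 were called at 3 h in edgeR's test or in DESeq2, and 4 were called higher with the block. The median log2 difference of the 15 was 0.16, with 8 above 0 and 7 below.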
